A study of Caenorhabditis elegans with 2 samples.

Results

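The 6 genes described here, tasp-1, mdt-26, wip-1, atx-2, gei-4 and dpf-3, carried some of the strongest SPTF-2 peaks found at protein-coding starts in young adult Caenorhabditis elegans. They were chosen by the signal value of the optimal peak list, which is the authors' score of each peak on the peak caller's own scale. Each had an optimal summit within 500 bp of one of its protein-coding starts, with no tRNA, snoRNA or snRNA start in that distance. They are 6 of 19973 nuclear protein-coding genes, of which 187 had an optimal summit that close. Of the 407 optimal peaks, 117 lay at a protein-coding start without a small RNA start, and 111 of these belonged to other genes.

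The study measured SPTF-2 binding by chromatin immunoprecipitation and sequencing (ChIP-seq) in 1 group of 2 biological replicates. Both replicates were whole worms of strain OP769, unc-119(tm4063) mutants with the insertion wgls769. This transgene fuses sptf-2 to TY1, EGFP and 3xFLAG tags and brings in unc-119(+), so every worm carried the tagged protein, the unc-119 mutation and its rescue. The worms were of mixed sex, starved as L1 larvae after bleaching to synchronise them, and collected as young adults at 64.5 h. SPTF-2-eGFP was precipitated with an antibody against GFP from sonicated chromatin of 200 to 800 bp. All tissues were pooled in each sample, and binding in a few cells cannot be told apart from weaker binding in many. The labels do not state that the replicates were separate cultures, and control samples were not analysed here.

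SPTF-2 is a zinc finger protein of the Sp family. Sp proteins are known in mammals for binding GC boxes, short G- and C-rich stretches of promoters, and for serving promoters of widely expressed genes. In C. elegans many messages are trans-spliced to a leader, so an annotated start can mark the site where the leader joins the message and not where transcription begins. Distances to starts are therefore distances to annotated starts.

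By known role or binding partner the genes fall into 3 groups. The products of tasp-1 and mdt-26 act in the nucleus: tasp-1 encodes a relative of mammalian Taspase 1, the protease that cleaves MLL and TFIIA, and mdt-26 encodes a subunit of Mediator, the complex that links transcription factors to RNA polymerase II. The products of atx-2 and dpf-3 act on RNA and small RNA pathways: atx-2 encodes ataxin-2, an RNA-binding protein that works with the poly(A)-binding protein in the germline, and dpf-3 encodes a dipeptidyl peptidase that trims Argonaute proteins of the germline. The others are grouped by partners tied to actin: wip-1 encodes the partner of WSP-1, the worm WASP protein. The gene gei-4 was named for the binding of its product to GEX-3, a member of the WAVE complex. For gei-4 the grouping rests on that binding alone, which does not show a role in actin.

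The sequence at the summit is given below for 5 of the genes, to show which letters of 3 short motifs it holds and how base composition differs. Each runs 5′ to 3′ along the strand of the gene, from 100 bp before to 100 bp after the optimal summit, and was read from the RefSeq genome sequence of WBcel235, the same assembly as ce11. The stretches of tasp-1 and gei-4 end at the annotated start of the gene. That of atx-2 runs past its annotated start, which is its start codon, and that of mdt-26 lies wholly after its start. Capitals mark matches on either strand to GGGCGG (the GC box core), to CACCC (a core known from the related KLF proteins) or to GAGAGA.
tasp-1 (III:10759146-10759306, plus strand): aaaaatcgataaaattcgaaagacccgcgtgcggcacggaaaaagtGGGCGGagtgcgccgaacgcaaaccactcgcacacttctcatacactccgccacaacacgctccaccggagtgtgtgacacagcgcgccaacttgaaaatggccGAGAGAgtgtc
mdt-26 (II:5661288-5661488, plus strand): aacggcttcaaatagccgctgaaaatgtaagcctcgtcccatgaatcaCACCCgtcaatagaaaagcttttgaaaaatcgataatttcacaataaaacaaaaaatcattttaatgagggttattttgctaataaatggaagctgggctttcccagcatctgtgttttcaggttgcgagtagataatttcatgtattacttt
atx-2 (III:10461233-10461433, plus strand): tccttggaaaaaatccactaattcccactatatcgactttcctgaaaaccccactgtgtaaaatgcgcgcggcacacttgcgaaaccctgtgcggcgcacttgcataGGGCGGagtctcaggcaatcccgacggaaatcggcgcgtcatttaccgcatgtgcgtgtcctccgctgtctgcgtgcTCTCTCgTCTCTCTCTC
wip-1 (III:5018236-5018436, plus strand): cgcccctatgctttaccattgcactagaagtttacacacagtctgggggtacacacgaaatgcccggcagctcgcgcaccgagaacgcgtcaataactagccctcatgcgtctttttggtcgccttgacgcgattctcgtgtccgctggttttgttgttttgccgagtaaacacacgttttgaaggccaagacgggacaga
gei-4 (III:354801-354937, minus strand): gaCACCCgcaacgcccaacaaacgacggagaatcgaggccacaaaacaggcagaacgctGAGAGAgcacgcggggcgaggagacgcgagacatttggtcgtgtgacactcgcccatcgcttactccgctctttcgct

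The GC box core stood in the windows of tasp-1 and atx-2 alone among the 6. In tasp-1 it spanned bases -54 to -49 from the summit, counted along the gene, and in atx-2 it spanned bases 7 to 12. That is 2 of 6 windows, against 13 of 111 at the other coding promoters (11.7%), 48 of 401 at all other optimal summits (11.97%) and 5.01% of 29304 protein-coding starts. With 6 windows, a share of this size rests on very few matches. For none of the motifs were the compared windows matched in GC content. GC content was 54.7% in both the tasp-1 and the atx-2 window, beside a median of 44.3% at the other coding promoters. Whether composition bears on the shares was not tested.

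CACCC was found in 3 of the 6 windows. The mdt-26 window held it at bases -52 to -48, gei-4 at -98 to -94 and again at 73 to 77, and dpf-3 at -37 to -33 on the reverse strand. The second match of gei-4 lies past the stretch printed above. The other coding promoters held it in 17 of 111 windows (15.3%), all other optimal summits in 99 of 401 (24.7%) and protein-coding starts in 13.5%.

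GAGAGA was found in 4 of the 6 windows. The atx-2 window held 4 matches between bases 84 and 100 on the reverse strand, 3 of which overlap each other, and tasp-1, gei-4 and dpf-3 held 1 each. All 4 matches of atx-2 lie after its annotated start, which is also its start codon and stands 56 bp after the summit. The share of windows with GAGAGA was 21 of 111 at the other coding promoters (18.9%), 106 of 401 at all other optimal summits (26.4%) and 13.99% at protein-coding starts. The window of wip-1 held none of the 3 motifs. A match is a string of letters and was not tested as a binding site, and a window without one shows only that these letters are missing from it.

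The 6 windows split by base composition. Their GC content was 54.7% in tasp-1, 54.7% in atx-2, 52.7% in wip-1 and 59.2% in gei-4, but 35.3% in mdt-26 and 33.8% in dpf-3. The median over the 6 was 53.7%, against 44.3% at the other 111 coding promoters, 46.3% at all other optimal summits and 36.3% at all protein-coding starts. The windows of mdt-26 and dpf-3 thus lay below the lower quartile of the other coding promoters (40.3%), and the other 4 lay above the upper quartile (51.2%). Each window is otherwise close to unique: in a BLAST search of the genome, none had a second match of at least 50 bp at 90% identity, and the longest second match was 68 bp at 75% identity, for mdt-26.

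The signal values by which the genes were selected spanned from 343 to 148. All 6 genes had an optimal promoter peak by the rule itself, beside 0.936% of all protein-coding genes. In the order of coding promoters without small RNA starts, sptf-2 itself (399) stood above them all. The worms carry an inserted sptf-2 transgene, and reads from it were not separated here from those of the gene. Between mdt-26 (241) and wip-1 (167) stood rpl-35 (202), rpl-3 (203), the shared peak of K11H12.8 and rpl-15 (208) and that of uncp-18 and ears-2 (191), so the 6 are not the 6 highest. The first peaks outside the choice were rpl-20 with Y17G9B.5 (145), set-2 (144) and F57G12.1 (139), just below gei-4 (149) and dpf-3 (148). The values of gei-4, dpf-3 and the next peaks thus lie close together, and no gap in signal sets the group apart.

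**Figure D1:**
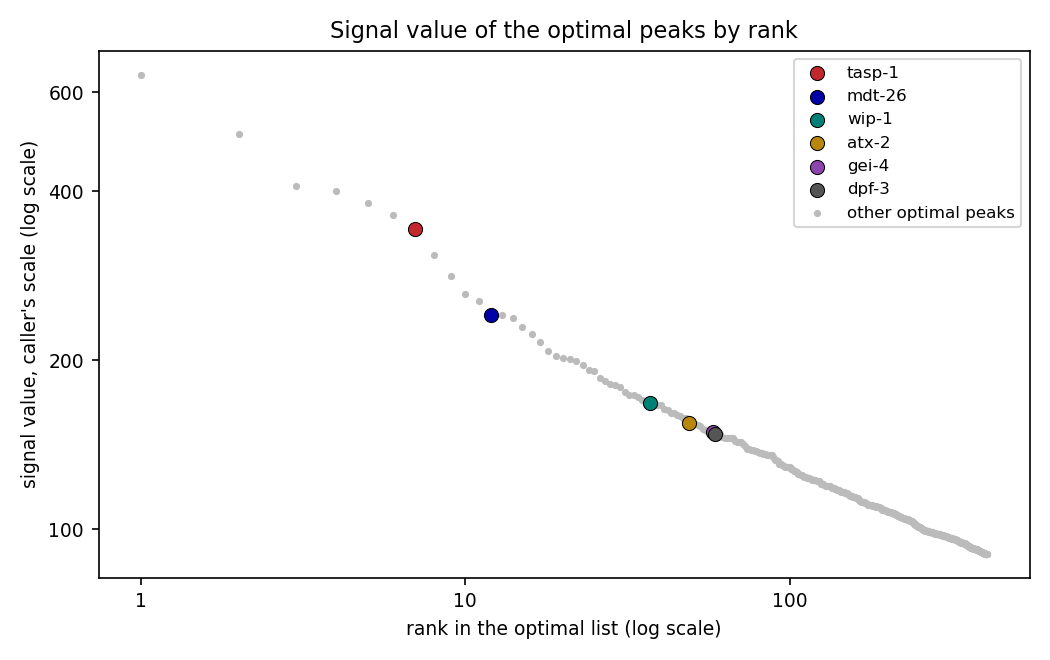
Signal value of the 407 optimal peaks (y axis, caller's own scale, log scale) by rank (x axis, log scale), with the 6 promoter peaks in colour and other optimal peaks in grey. tasp-1 at rank 7 and mdt-26 at rank 12 stand high on the steep part of the curve, while wip-1, atx-2, gei-4 and dpf-3 sit between ranks 37 and 59 on its flatter part.

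Peaks were called by the authors in each replicate and in the pooled reads. The optimal list keeps those that pass a limit on the irreproducible discovery rate, a measure of how well peak ranks hold up between repeated peak calls. It derives from both replicates, but which calls were compared is not known here. The optimal list held 407 peaks and each of the other lists 30000. The optimal list had a median signal of 107, the pooled list of 37.5, replicate 1 of 22.7 and replicate 2 of 20.6. A value is therefore set against others of its own list only, and lists are compared by rank. Each optimal promoter peak of the 6 genes was also a pooled peak with the same ends, summit and signal. Read depth is unknown, and no value can be weighed by it.

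The tasp-1 peak, at III:10759138-10759297, was the strongest of the 6. It had a signal of 343 and rank 7 in the optimal and pooled lists, 182 and rank 7 in replicate 1, and 144 and rank 8 in replicate 2. The replicates thus placed it almost identically, and their summits lay 7 bp apart. It was also an unusually narrow peak, 160 bp wide in the optimal list and 132 bp in replicate 1, where nearly all peaks have 1 fixed width per list; in replicate 2 it had the usual 364 bp. Of the 407 optimal peaks, 394 were 376 bp wide and 13 were narrower, all of them at ranks from 1 to 22. Among those 13, 8 had a snoRNA start and 1 an snRNA start within reach, and tasp-1 and rpl-3 were the coding promoters among the 4 with none.

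The mdt-26 peak, at II:5661200-5661575, had a signal of 241 and rank 12 in the optimal list, 121 and rank 19 in replicate 1, and 125 and rank 11 in replicate 2. Its summits in the replicates lay 61 bp apart. It was among the 20 strongest peaks of every list, as was that of tasp-1.

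The wip-1 peak, at III:5018148-5018523, had a signal of 167 and rank 37 in the optimal list, 87.0 and rank 46 in replicate 1, and 79.6 and rank 32 in replicate 2. The replicate summits lay 15 bp apart. The atx-2 peak, at III:10461145-10461520, had a signal of 155 and rank 49 in the optimal list, 69.4 and rank 136 in replicate 1, and 86.0 and rank 25 in replicate 2. Its ranks differed by a factor of 5.44, the widest split of the 6, and it was the weakest of them in replicate 1 but the third in replicate 2.

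The gei-4 peak, at III:354649-355024, had a signal of 149 and rank 58 in the optimal list, 85.3 and rank 54 in replicate 1, and 65.7 and rank 79 in replicate 2. The replicate ranks were close, but the summits lay 123 bp apart, the largest gap of the 6. The dpf-3 peak, at I:6838110-6838485, had a signal of 148 and rank 59 in the optimal list, 76.2 and rank 92 in replicate 1, and 72.7 and rank 54 in replicate 2, with summits 99 bp apart. tasp-1 and gei-4 ranked higher in replicate 1 and the other 4 in replicate 2.

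**Figure D2:**
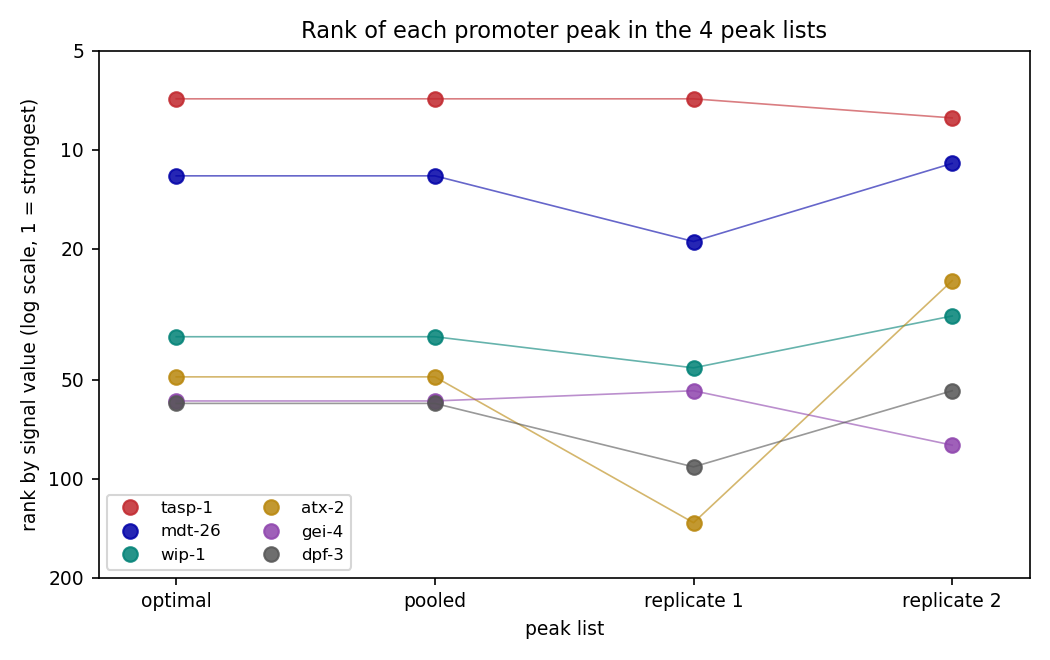
Rank by signal value (y axis, log scale, 1 is the strongest) of the promoter peak of each gene in the optimal, pooled, replicate 1 and replicate 2 lists (x axis). tasp-1 and mdt-26 stay at rank 19 or better in all lists, and atx-2 shows the widest spread, from rank 25 in replicate 2 to rank 136 in replicate 1.

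All 6 promoter peaks overlapped a peak in both replicates, as did 110 of the 111 other coding promoter peaks (99.1%) and 399 of all 401 other optimal peaks (99.5%), so this overlap does not distinguish them. All 6 stood at rank 407 or better in each replicate, against 26 of the 111 other coding promoter peaks (23.4%), 157 of all 401 other optimal peaks (39.2%) and 105 of the 179 optimal peaks at small RNA starts (58.7%). The optimal list was derived from both replicates and the genes were selected on its signal, so this is a description and no test was made. The median factor between replicate ranks was 1.58 for the 6 and 3.00 for the 111, and the median distance between replicate summits was 47.5 bp for the 6 and 33 bp for the 111. The 6 were chosen for high signal and the 111 were not matched to them in signal, so these medians are descriptions too. Having a summit within 500 bp of a coding start is itself common in the longer lists: the share of protein-coding genes with one was 36.9% for pooled peaks, 36.6% for replicate 1 and 36.8% for replicate 2, and all 6 genes had one in each.

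The summit stood before the start in 5 of the 6 genes. In tasp-1 it lay 61 bp before the nearest annotated start, in atx-2 and dpf-3 56 bp, in gei-4 37 bp and in wip-1 303 bp. In mdt-26 it lay 207 bp after the start, in the first intron of the coding transcript. mdt-26 has 3 annotated transcripts, and its 2 noncoding ones were not used for this distance. Of the 111 other coding promoter summits, 75 stood before the start (67.6%). The median signed distance, negative before the start, was -56 bp for the 6 genes and -153 bp for the 111, whose middle 50% ran from -251 to 58 bp.

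The position held between replicates to a different degree in each gene. The summit stood 65 bp before the tasp-1 start in replicate 1 and 72 bp in replicate 2, and 316 bp and 331 bp before the wip-1 start. In mdt-26 it stood 220 bp after the start in replicate 1 and 159 bp after it in replicate 2. In atx-2 it stood 48 bp before the start in replicate 1 and 14 bp in replicate 2. In gei-4 it stood 160 bp before the start in replicate 1 and 37 bp in replicate 2. In dpf-3 the side itself changed, with the summit 22 bp after the start in replicate 1 and 77 bp before it in replicate 2.

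**Figure D3:**
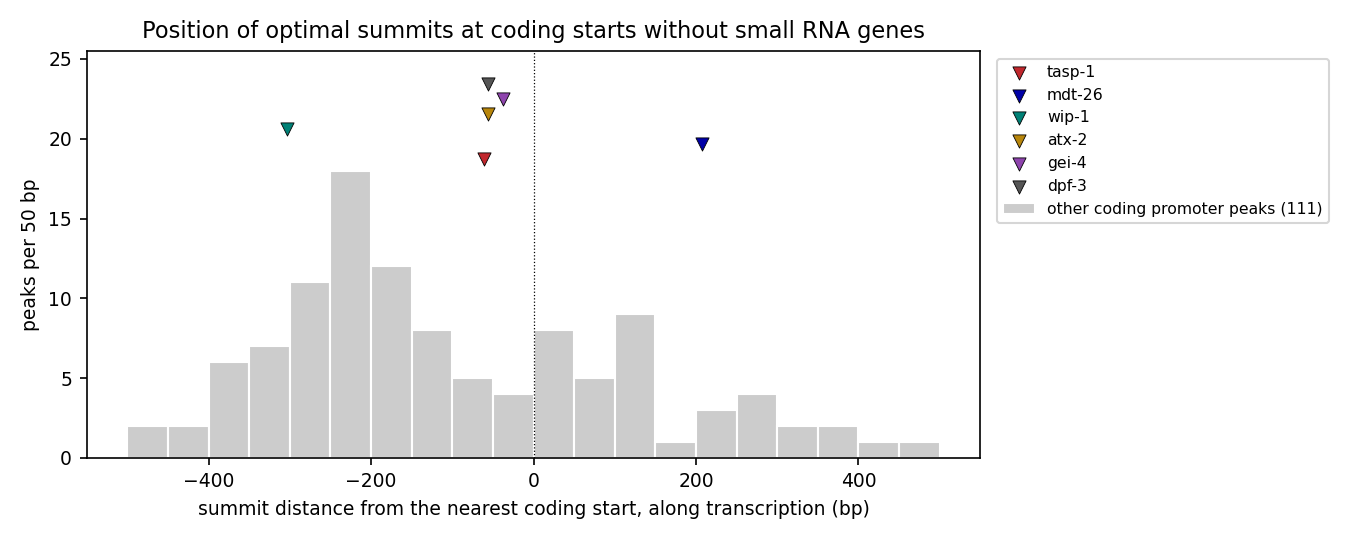
Distance of the optimal summit from the nearest protein-coding start in bp (x axis, negative before the start) for the 6 genes (triangles, whose height has no meaning) and for the 111 other coding promoter peaks without small RNA starts (grey bars, peaks per 50 bp on the y axis). Summits of tasp-1, atx-2, gei-4 and dpf-3 lie within 61 bp before the start, wip-1 lies 303 bp before it and mdt-26 207 bp after it.

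The annotation of the starts differs between the genes, which bears on these distances. In atx-2 and dpf-3 the first annotated start is the start codon itself, in wip-1 it lies 9 bp and in mdt-26 13 bp before the start codon, so these 4 models hold little or no 5′ UTR. The other two differ: along the genome, introns included, the start codon lies 460 bp after the first start in tasp-1 and 6400 bp after it in gei-4. tasp-1 (III:10759307-10763021, 3715 bp) has 3 starts, wip-1 (III:5018639-5021120, 2482 bp) 2, atx-2 (III:10461389-10468051, 6663 bp) 4 and gei-4 (III:344306-354800, minus strand, 10495 bp) 7. mdt-26 (II:5661181-5665243, 4063 bp) and dpf-3 (I:6838354-6843343, 4990 bp) have 1 coding start each. With RefSeq starts in place of Ensembl starts the distance became -139 bp for tasp-1 and -43 bp for gei-4, and the other 4 distances were identical.

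The neighbourhood of each promoter peak was mapped for other genes whose start lay within 2 kb of the summit or whose transcript overlapped the peak. Upstream of 4 of the genes, tasp-1, mdt-26, wip-1 and atx-2, lay a gene on the opposite strand, transcribed away from it. The summit lay closer to the start of the gene described here than to that of its neighbour in all 4. The start of K01G5.10 lay 724 bp from the tasp-1 summit, and that of rnf-113, a ring finger protein gene, 1606 bp. The start of ift-43, an intraflagellar transport gene, lay 602 bp from the mdt-26 summit, and that of fut-3, a fucosyltransferase gene, 1613 bp. The start of larp-1, a La-related RNA-binding protein gene, lay 686 bp from the wip-1 summit, and that of ecps-1, a gene for a proteasome adaptor related to ECM29, 782 bp from the atx-2 summit.

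The other two genes lay in a different setting. The gei-4 peak overlapped linc-90, a long noncoding RNA gene on the opposite strand (III:352222-355402) that runs across the gei-4 start and begins 2615 bp from the summit. The dpf-3 peak overlapped the 3′ end of ahcy-1, the S-adenosylhomocysteine hydrolase gene, which lies on the same strand, ends 213 bp before dpf-3 and starts 1829 bp from the summit. Which transcript a peak serves was not tested in any of these places.

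**Figure D4:**
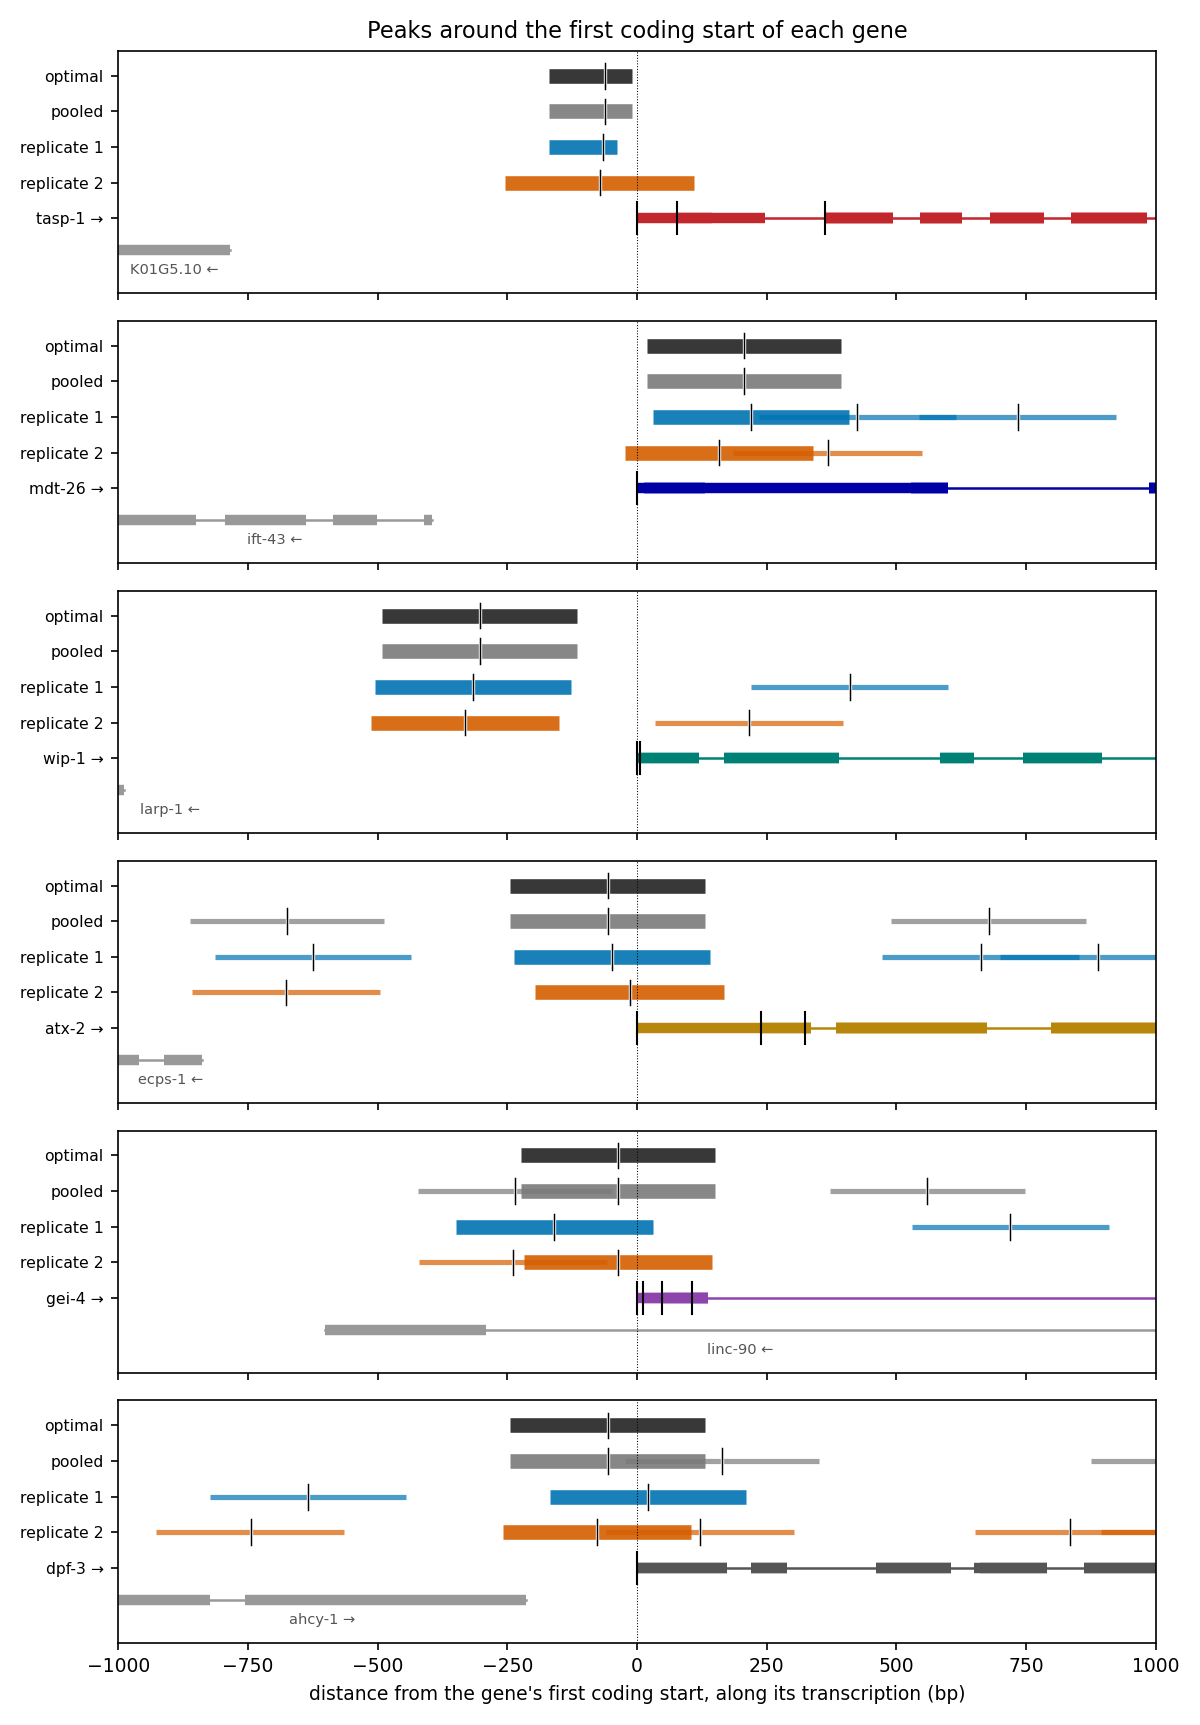
Peaks within 1000 bp of the first coding start of each gene (x axis, bp along the direction of transcription), by list from optimal to replicate 2, with promoter peaks as thick bars, further peaks as thin bars and summits as black ticks. Below them stand the exons of any transcript of the gene (boxes), its annotated coding starts (ticks) and the neighbouring gene in grey. The tasp-1 peak is narrower than the others, and the gei-4 and dpf-3 peaks lie across linc-90 and the end of ahcy-1.

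The distances from the summits to small RNA genes and to other optimal peaks varied widely among the 6. The choice of the genes itself excluded small RNA starts close to the summit. No background distance was computed, and whether these distances are unusual was not tested. The nearest tRNA, snoRNA or snRNA start was 62.6 kb from the tasp-1 summit, 40.3 kb from mdt-26, 29.0 kb from atx-2, 8.27 kb from wip-1, 148 kb from gei-4 and 9.01 kb from dpf-3. The next optimal peak lay 16.6 kb from tasp-1, 118 kb from mdt-26, 44.9 kb from atx-2, 13.3 kb from wip-1, 148 kb from gei-4 and 8.95 kb from dpf-3. For gei-4 both values point to one place, the snoRNA gene F30H5.4. For dpf-3 the next optimal peak stood at syp-4 and H27M09.5 with a signal of 143 and rank 70. The small RNA start nearest to dpf-3, at 9.01 kb, was that of the snRNA gene H27M09.6, a similar distance away. The rank 70 peak was not among the coding promoters without a small RNA start.

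All peaks inside each gene or within 2 kb of any of its starts were then counted, a region called its domain here. No domain held an optimal peak other than the promoter peak. Over all 19973 protein-coding genes, 1.83% had an optimal peak in the domain, not counting the strongest promoter peak where there was one. Only 187 of those genes had an optimal promoter summit, unlike the 6, and a count of 0 among 6 is near that share. The pooled list held 26 further peaks in the 6 domains, at ranks from 553 to 29917. Of these, 16 overlapped a peak in both replicates (61.5%, against 45.2% of all 30000 pooled peaks), 9 in one replicate and 1 in neither. Neighbouring pooled peaks can share a replicate peak, and 2 of the 26 overlapped the promoter peak itself. By position, 11 lay in coding exons, 9 in introns, 1 in a 3′ UTR and 5 outside the gene. For 7 of the 26 the nearest coding start was that of another gene, and of the rest 18 lay after the first start and 1 before it.

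The genes divided into those with a lone peak and those with many. tasp-1 had 1 pooled peak in a domain of 5715 bp, its promoter peak, and no further peak in either replicate. wip-1 also had 1 pooled peak, in 4482 bp, with 1 further weak peak in replicate 1 (rank 26311) and 2 in replicate 2 (ranks 18234 and 26826). Of the 135 genes whose strongest coding promoter peak was optimal and without a small RNA start, 19 had a single pooled peak in their domain, tasp-1 and wip-1 among them. Per kb of domain, tasp-1 had 0.175 and wip-1 0.223 pooled peaks, near the median of 0.250 over all protein-coding genes (middle 50% from 0.122 to 0.4999). The other 4 genes exceeded the upper quartile, with 0.825 in mdt-26, 1.15 in atx-2, 0.640 in gei-4 and 1.00 in dpf-3. Each count includes the promoter peak that the choice guarantees; without it the values were 0.660 in mdt-26, 1.04 in atx-2, 0.560 in gei-4, 0.858 in dpf-3 and 0 in tasp-1 and wip-1.

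mdt-26 had 4 further pooled peaks. The strongest, at rank 1299 with a signal of 69.8, lay in a coding exon 1561 bp after the start and met a replicate 1 peak at rank 3528 and a replicate 2 peak at rank 2444. Its promoter peak stood at rank 12, so the second peak was far down the same list. A weak pooled peak at rank 25263 lay 5 bp from the fut-3 start.

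atx-2 had 9 further pooled peaks, the most of the 6. The strongest, at rank 595 with a signal of 83.0, lay in a coding exon 4124 bp after the first start and 1057 bp after an internal start, and overlapped a replicate 1 peak at rank 976 and a replicate 2 peak at rank 337. A weaker pooled peak, at rank 5877 (49.4), overlapped it and shared those replicate peaks. A peak at rank 1164 (71.6) lay at -674 bp from the atx-2 start and 164 bp from the ecps-1 start, and the replicates disagreed about it, which placed it at rank 19557 (replicate 1) and at rank 234 (replicate 2). A peak at rank 1243 (70.5) in an intron overlapped a replicate 1 peak at rank 712 and no replicate 2 peak. These 2 upstream and intron peaks thus each rested mainly on 1 replicate, unlike the one in the coding exon. A peak at rank 1301 (69.7) lay inside ecps-1, at -1782 bp from the atx-2 start.

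gei-4 had 7 further pooled peaks. The strongest, at rank 553 with a signal of 84.2, was also the strongest further peak of all 6 genes. It lay in an intron, 4927 bp after the first start and at -1440 bp from an internal start, and met a replicate 1 peak at rank 739 and a replicate 2 peak at rank 204. A second pooled peak, at rank 2086 (62.8), had its summit at -236 bp from the first start and overlapped the promoter peak. Replicate 1, whose gei-4 summit lay farther upstream, showed 1 peak there, and replicate 2 showed 2 overlapping ones.

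dpf-3 had 6 further pooled peaks, none above rank 3058. That one (57.6) had its summit 164 bp after the start, in a coding exon, and overlapped the promoter peak. The summits of the pooled pair lay on either side of the start, as did those of the 2 overlapping replicate 2 peaks, while the single replicate 1 peak had its summit between them. A peak at rank 4635 (52.4) lay in an intron 2004 bp after the start, and one at rank 9905 lay 112 bp from the ahcy-1 start.

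**Figure D5:**
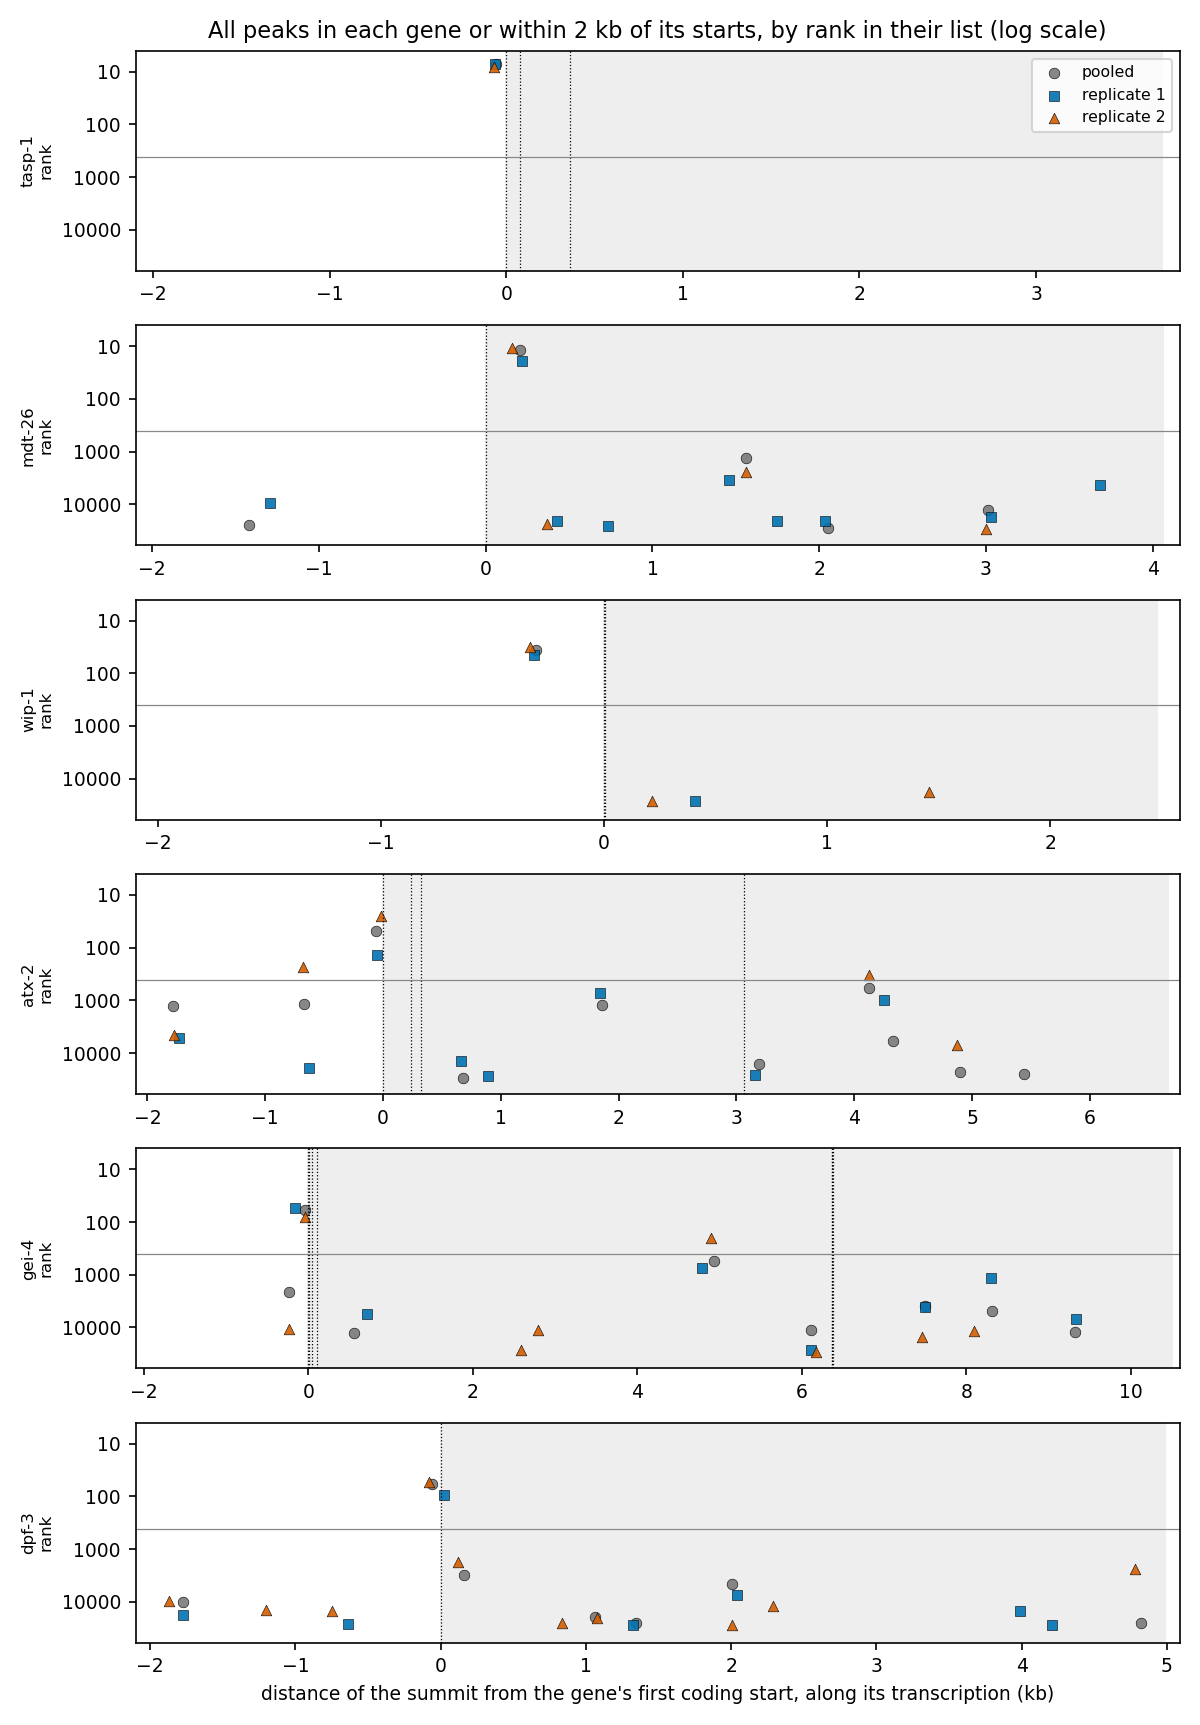
Rank (y axis, log scale, strongest at the top) of every pooled, replicate 1 and replicate 2 peak in the domain of each gene against the distance of its summit from the first coding start (x axis, kb along transcription). Grey shading marks the gene, dotted lines its coding starts and the horizontal line rank 407. tasp-1 has its promoter peak alone, and 2 further replicate 2 peaks of atx-2 and 1 of gei-4 lie above the line.

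Among the 407 strongest peaks of a single replicate, further peaks of the 6 genes appeared in replicate 2 only. These were the atx-2 peaks at ranks 234 and 337 and the gei-4 intron peak at rank 204. Replicate 1 had none at that rank, and none of the 3 places reached the optimal list.

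Genes that work with the members, or share their family, were looked up in 5 lists. In each list the single gene with an optimal summit within 500 bp of a coding start was the member itself, which was chosen for that peak. Of 29 Mediator genes matched, mdt-26 alone had one, while 16 had a pooled summit, 17 one in replicate 1 and 15 one in replicate 2. Of 18 genes of WASP, WAVE and Arp2/3 actin nucleation, wip-1 alone had one, and 7 had a pooled summit. Of 10 matched genes named for GEX-3 interaction, gei-4 alone had one, and 5 had a pooled summit. Of 7 genes of the dpf family of dipeptidyl peptidases, dpf-3 alone had one, and 3 had a pooled summit. Of atx-2 and 5 genes for RNA-binding proteins that it works with, atx-2 alone had one, and all 6 had a pooled summit.

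Over the lists, 65 distinct genes were not members, and none of these had an optimal promoter summit, beside a share of 0.936% over all protein-coding genes. A count of 0 among 65 is near that background. A pooled summit was found at 32 of the 65, beside 36.9% of all protein-coding genes. The nearest to an optimal call was wve-1, the WAVE protein gene, whose optimal peak at rank 301 (97.2) lay at -620 bp from its start, outside the distance used.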

How the data were processed

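The authors deposited narrowPeak lists on assembly ce11 for each replicate, for the pooled replicates and for the optimal set, each called against a control alignment per the deposited file descriptions. Which aligner and peak caller were used, and with which settings, is not given in the sources used here. Signal values are the authors' scores, in the units of their caller. Summits are deposited as offsets from each peak's first base. Almost all peaks of a list share 1 width, so widths do not measure how far binding extends.

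Peaks were ranked by signal within each list. Starts and transcripts came from Ensembl release 115, alternative starts and the sequence from RefSeq, and coordinates are 1-based. Overlap meant at least 1 bp. Copies were searched with BLAST 2.17.0, and scripts ran in Python 3.11.15 with matplotlib 3.10.9. The counting was tested on simulated data.

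With 1 group and genes selected on the signal, no test was made. The genes and lists were chosen with earlier results of these data known. Genes named are the 6, their neighbours within 2 kb or overlapping the peak, those next to them in signal, and genes of the lists with an optimal promoter summit; wve-1, the genes at the next optimal peaks and the nearest small RNA genes were named after their values were seen. Alternatives changed the distance to a start, the annotation, the overlap, the motif window and the replicate used.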

Additional observations from a re-analysis of the deposited data

How the results depend on the processing

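Where a count from the optimal list was made with 1 replicate left out, the 407 strongest peaks of the other replicate stood in for that list. The number of genes with an optimal or stand-in promoter peak was 6 under every alternative but 1: within 250 bp of a start it was 5, since wip-1 dropped out. The overlap with both replicates was 5 when summits had to lie within 100 bp, which left out gei-4. Further optimal peaks numbered 0. Among the stand-in peaks, which are not optimal peaks, 2 genes (atx-2 and gei-4) had a further peak from replicate 2 alone and 0 from replicate 1 alone. The 26 further pooled peaks fell to 16 when they had to overlap both replicates. With motif windows of 50 bp either side, fewer bases searched, GGGCGG stood in 1 window in place of 2, CACCC in 1 in place of 3 and GAGAGA in 2 in place of 4. The dpf-3 summit changed side with 1 replicate left out, from -77 bp to 22 bp around the start, where the optimal summit stood at -56 bp; the cause was not tested. The other counts stayed within 1.5 times their value. The median rank was 28.5 without replicate 1 and 50 without replicate 2, beside 43. No paired analysis was possible because there is 1 group. Depth is unknown, ranks carry no error, and 2 replicates of 1 strain at 1 age limit all values.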

Other observations

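The windows of tasp-1 and atx-2, which both held the GC box core, shared GGCGGAGT, a string noticed after the sequences were seen. At the core of both windows it begins at the second base of the core and runs past its end. There it overlaps the GC box match and is not a separate shared feature. The string does not hold the whole core, and the counts below are of this string whether or not the core is complete. tasp-1 held it at bases -53 to -46 from the summit and again on the reverse strand at -10 to -3, and atx-2 held it at bases 8 to 15. It stood in 2 of the 6 windows, against 3 of 111 at the other coding promoters (2.70%), 6 of 401 at all other optimal summits (1.496%) and 234 of 29304 protein-coding starts (0.799%). Since the run was picked from these sequences, the first share is a description only.

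Of the 6 genes, 4 (tasp-1, wip-1, atx-2 and gei-4) lie on chromosome III, which held 17 of the 111 other coding promoter peaks (15.3%) and 51 of all 401 other optimal peaks (12.7%). This was noticed after the data were seen, and no test was made. The tasp-1 and atx-2 genes are the closest pair among them.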
